A study of Homo sapiens with 4 samples.

Results

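Transforming growth factor β (TGF-β) and YAP responsive genes were examined in A549 cells, an established human lung adenocarcinoma line, on 4 Affymetrix Human Genome U133 Plus 2.0 arrays. The set holds 9 named genes of the 19775 that the probe annotation names alone on a probe set: the ligands TGFB1 and TGFB2, the pathway inhibitors SMAD7 and SKIL, and the responsive genes TGFBI, THBS1, CCN1, CCN2 and ANKRD1. All 25 probe sets annotated to these symbols were read, none of which names a further gene, and each gene is represented by its brightest one, meaning that of the highest log2 signal averaged over the arrays. Each array held RNA of cells transfected with a control siRNA or with siRNA to β-arrestin, which the study's methods name as β-arrestin-1 (ARRB1), a scaffold protein that shuts off activated G-protein-coupled receptors, and then either serum starved or serum starved and given nicotine. Serum was withdrawn for 36 h and nicotine, where given, was applied at 1 µM for 24 h, so all 4 conditions share the transfection and the starvation. Whether the starved cells were kept without serum for the time of the nicotine treatment is not given in the sources used here. There is 1 array per condition, so no difference between 2 arrays has a replicate check, and precision is limited by the number of arrays. An additive limma fit over all 12521 expressed genes, with siRNA and treatment as terms, tested each term over both of its pairs, with Benjamini-Hochberg adjustment. It leaves 1 residual degree of freedom and counts any interaction of siRNA and treatment as error. The variance of each gene was moderated with 15.21 prior degrees of freedom, taken from the expressed genes by a trend on signal. The standard error (SE) and p of a gene thus rest mostly on the spread of other genes among these arrays. They measure no spread between replicates.

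TGF-β ligands are secreted in a latent form, and once released they bind paired serine and threonine kinase receptors that phosphorylate SMAD transcription factors. Activated SMADs switch on genes of the extracellular matrix and also their own inhibitors, among them SMAD7, which blocks the receptors, and SKIL, also called SnoN, which represses SMAD targets. YAP and its relative TAZ are coactivators held in the cytoplasm by the kinases of the Hippo pathway. When free they bind TEAD factors on DNA and raise CCN1, CCN2 and ANKRD1, of which CCN2, and in part CCN1, also respond to TGF-β. In epithelial tumour cells both pathways are known for their part in adhesion, matrix deposition and invasive behaviour.

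The promoters are shown because TEAD and SMAD factors act on these genes through DNA motifs, and those of CCN2 and ANKRD1 are well known TEAD targets. The RefSeq promoter table (GRCh38.p14) held 8 of the 9 genes, CCN1 being the one without an entry, and listed 3 starts for SMAD7. The 250 bases before the start site are printed for 4 of them, read 5′ to 3′ on the strand of the gene. They lie at chr6:131951373-131951622 (minus strand) for CCN2, chr10:90921088-90921337 (minus strand) for ANKRD1, chr15:39580829-39581078 (plus strand) for THBS1 and chr3:170357465-170357714 (plus strand) for SKIL. Capitals mark matches, on either strand, to the TEAD motif, the SMAD element or the AP-1 motif.
CCN2: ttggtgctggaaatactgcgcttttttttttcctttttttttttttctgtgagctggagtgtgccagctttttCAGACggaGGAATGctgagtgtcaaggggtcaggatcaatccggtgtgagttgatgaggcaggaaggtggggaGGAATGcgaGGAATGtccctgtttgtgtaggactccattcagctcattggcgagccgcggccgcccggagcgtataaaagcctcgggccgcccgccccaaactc
ANKRD1: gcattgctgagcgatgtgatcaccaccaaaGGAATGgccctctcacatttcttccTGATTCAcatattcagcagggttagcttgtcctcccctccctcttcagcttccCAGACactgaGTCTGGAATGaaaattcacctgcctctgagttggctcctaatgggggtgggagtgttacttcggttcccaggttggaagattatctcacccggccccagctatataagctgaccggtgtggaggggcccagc
THBS1: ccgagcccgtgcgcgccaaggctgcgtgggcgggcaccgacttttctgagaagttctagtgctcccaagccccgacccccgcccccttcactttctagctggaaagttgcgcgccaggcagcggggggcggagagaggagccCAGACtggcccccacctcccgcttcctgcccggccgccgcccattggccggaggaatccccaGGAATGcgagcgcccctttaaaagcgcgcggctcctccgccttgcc
SKIL: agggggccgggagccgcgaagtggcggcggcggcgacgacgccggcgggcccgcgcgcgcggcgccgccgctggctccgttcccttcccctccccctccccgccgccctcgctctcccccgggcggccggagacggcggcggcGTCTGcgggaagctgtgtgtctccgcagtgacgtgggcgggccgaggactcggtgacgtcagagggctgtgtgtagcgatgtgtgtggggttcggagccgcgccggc

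Counted back from the start site, the TEAD motif GGAATG stood 3 times in the CCN2 window, with first bases at -169, -104 and -95. It stood 2 times in the ANKRD1 window, at -220 and -128, where the second copy shares 1 base with a SMAD element. THBS1 held 1 copy at -46 and TGFB2 held 1 at -185, while none was found in the windows of SKIL, SMAD7, TGFBI or TGFB1. Of 35116 promoter windows of 300 bases, which add the 50 bases after the start, 14.03% held the TEAD motif at least once, 1.37% at least 2 times and 0.128% at least 3 times. The SMAD element CAGAC was found in 45.3% of all windows and in those of CCN2, ANKRD1, THBS1, SKIL, SMAD7 and TGFB2, the longer palindrome GTCTAGAC in 0.202% of all windows and in none of the 8 genes, the AP-1 motif TGANTCA in 7.71% and in ANKRD1, and the CArG box of serum response factor in 1.29% and in none of the 8. These matches describe letters, and binding was not measured.

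The values are linear MAS5 signals, scaled so that the trimmed mean (2% off each end) of every array is 500.1. A gene is called expressed here when the mean log2 signal of its brightest probe set reached the median of all 54613 probe sets analysed, a signal of 66.3. By this rule 12521 genes were expressed, among them 8 of the 9 genes studied, the exception being ANKRD1. ARRB1 itself had lower signals with its siRNA on 6 of its 7 probe sets in each pair, at a median of 54.2% of control in starved and 65.7% in nicotine treated cells. Epithelial and A549 markers were present (10 of 11 expressed, with a summed signal of 89038 to 120080). Of the other classes, 2 of 6 fibroblast, 1 of 4 endothelial and 1 of 3 leukocyte markers reached the same limit. Each of those classes had a summed signal of at most 752. Within the epithelial class KRT8, KRT18, ALDH1A1 and AKR1B10 read 15600 to 36204. The lung markers SFTPB, SFTPC and NAPSA read only 54.6 to 232, in the range of PECAM1 and CD79A (149 to 256), and NKX2-1 was not expressed. Of 12 interferon response genes, 9 were at least 2-fold lower with ARRB1 siRNA in both pairs. At 1.5-fold in both pairs 10 of the 12 were lower, where 1.72% of all expressed genes were. The list median was -1.69 in starved and -2.11 in nicotine treated cells on the log2 scale. The part of the interferon response genes in the differences below was not tested. Bright probe sets were shifted as a class, as given with TGFBI below.

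**Figure D1:**
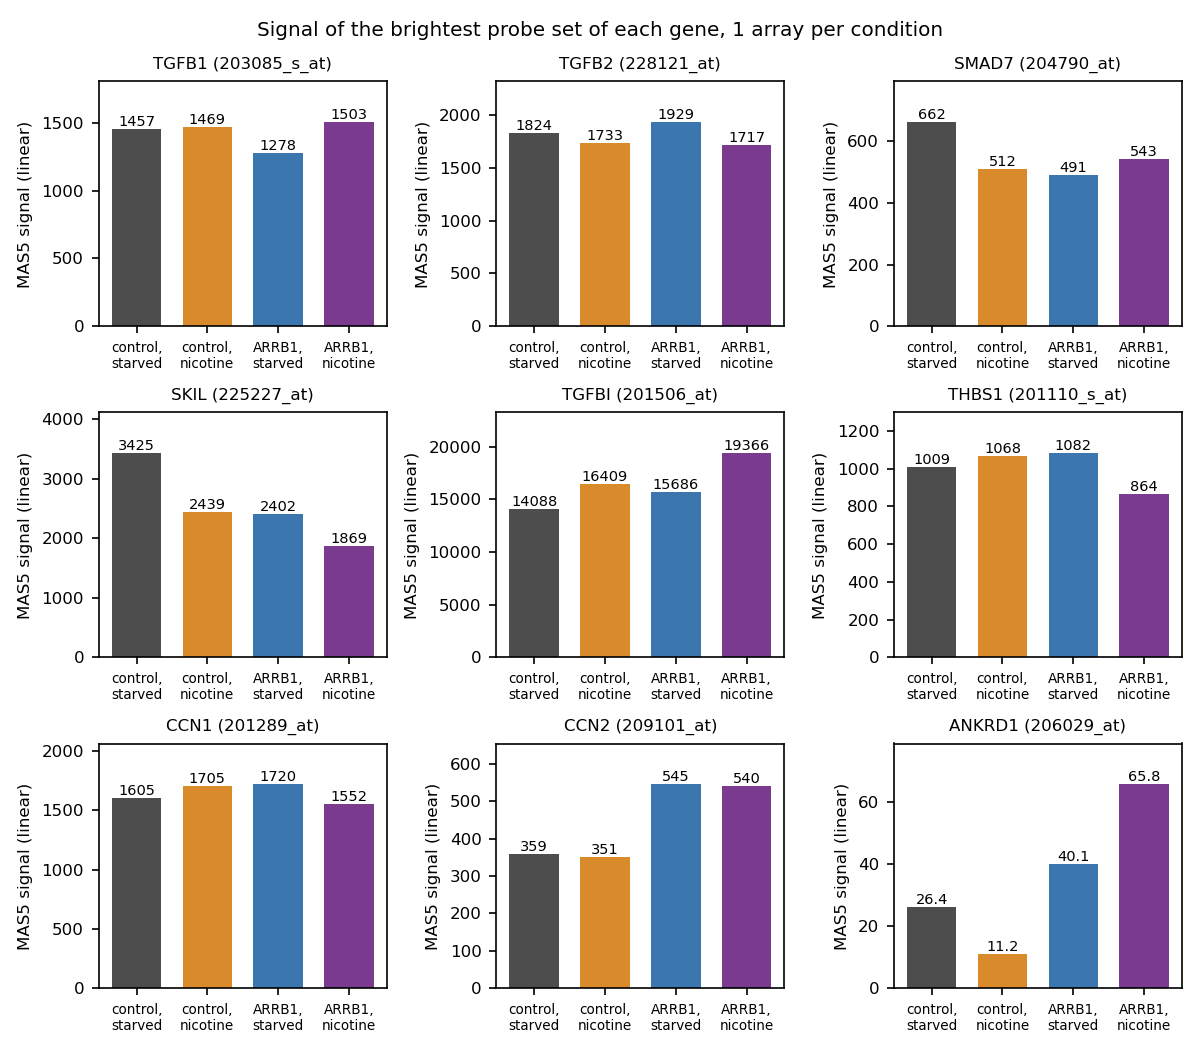
MAS5 signal (linear vertical axis from 0, a separate scale in each panel) of the brightest probe set of each gene on the 4 arrays, 1 bar per array and no error bars because there are no replicates. CCN2 stands at 359 and 351 with control siRNA and at 545 and 540 with ARRB1 siRNA, and SKIL stands at 3425 on the starved control array and at 1869 on the array with ARRB1 siRNA and nicotine.

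CCN2, a secreted matricellular protein and a standard readout of YAP, had higher signals with ARRB1 siRNA in both pairs and was flat with nicotine. Its single probe set, 209101_at, read 359 on the starved and 351 on the nicotine array with control siRNA, against 545 and 540 with ARRB1 siRNA. Both ARRB1 siRNA arrays thus stood above both control arrays, and within each siRNA the 2 arrays nearly coincided. The ratio of ARRB1 siRNA to control siRNA was 1.52 in starved and 1.54 in nicotine treated cells, log2 differences of 0.60 and 0.62. These pairs share no array. Among the 1000 probe sets nearest in signal the SD of this difference was 0.32 and 0.34, and counting CCN2 itself 24 and 29 of them were at least as high. With nicotine CCN2 differed by a log2 value of -0.03 under control siRNA and -0.01 under ARRB1 siRNA. In the additive fit the ARRB1 siRNA difference was 0.61 ± 0.15 (SE, 4 arrays), with an adjusted p of 0.0209 by limma. In the 7 other settings tried the adjusted p by limma ran from 0.0208 to 0.0472, under the limit of 0.05. Floors on the signal, the median over probe sets and leaving out _x_at probe sets could not change the CCN2 values. Only the scalings of the arrays could. For nicotine the adjusted p was 0.989. In an RNA extract of a whole culture, more RNA per cell and more cells with the RNA cannot be told apart.

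CCN1, the close relative of CCN2, did not share this pattern. Its brightest probe set, 201289_at, read 1605 (starved) and 1705 (nicotine) with control siRNA, against 1720 and 1552 with ARRB1 siRNA, a span of 1.11-fold over the 4 arrays. The log2 differences with ARRB1 siRNA were 0.10 in starved and -0.14 in nicotine treated cells, both smaller than the SD at that signal (0.25 and 0.28). The second probe set, 210764_s_at, was higher in both pairs, with 831 against 934 and 808 against 1091, log2 differences of 0.17 and 0.43. The probe sets of CCN1 therefore differed in sign for the nicotine pair.

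ANKRD1, a cardiac and muscle ankyrin repeat protein that is also a YAP target, was measured only at the noise level of these arrays. Its single probe set, 206029_at, read 26.4 (starved) and 11.2 (nicotine) with control siRNA, against 40.1 and 65.8 with ARRB1 siRNA. The ARRB1 siRNA arrays were again the higher ones in both pairs, but all 4 values lay below the medians of the arrays, 68.6 to 73.3. The log2 differences with ARRB1 siRNA were 0.60 and 2.55, where probe sets of similar signal had SDs of 1.15 and 1.18. Of the 1000 probe sets nearest in signal, ANKRD1 included, 345 and 19 were at least as high. With a floor on the signal at the median of all probe sets, both ARRB1 siRNA differences of ANKRD1 were 0.

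THBS1, thrombospondin-1, a matrix glycoprotein that can release latent TGF-β and responds to both pathways, had 7 probe sets of which 3 were expressed. The brightest, 201110_s_at, read 1009 (starved) and 1068 (nicotine) with control siRNA, against 1082 and 864 with ARRB1 siRNA. The nicotine treated ARRB1 siRNA array was the lowest, and the other 3 lay within 1.07-fold. Its log2 difference with ARRB1 siRNA was 0.10 in starved and -0.31 in nicotine treated cells. The next probe set, 201109_s_at, gave -0.19 and less than 0.01 in size, and 201108_s_at gave 0.06 and -0.45. The dimmer 4 ranged from -2.28 to 1.45 over the ARRB1 siRNA comparisons.

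**Figure D2:**
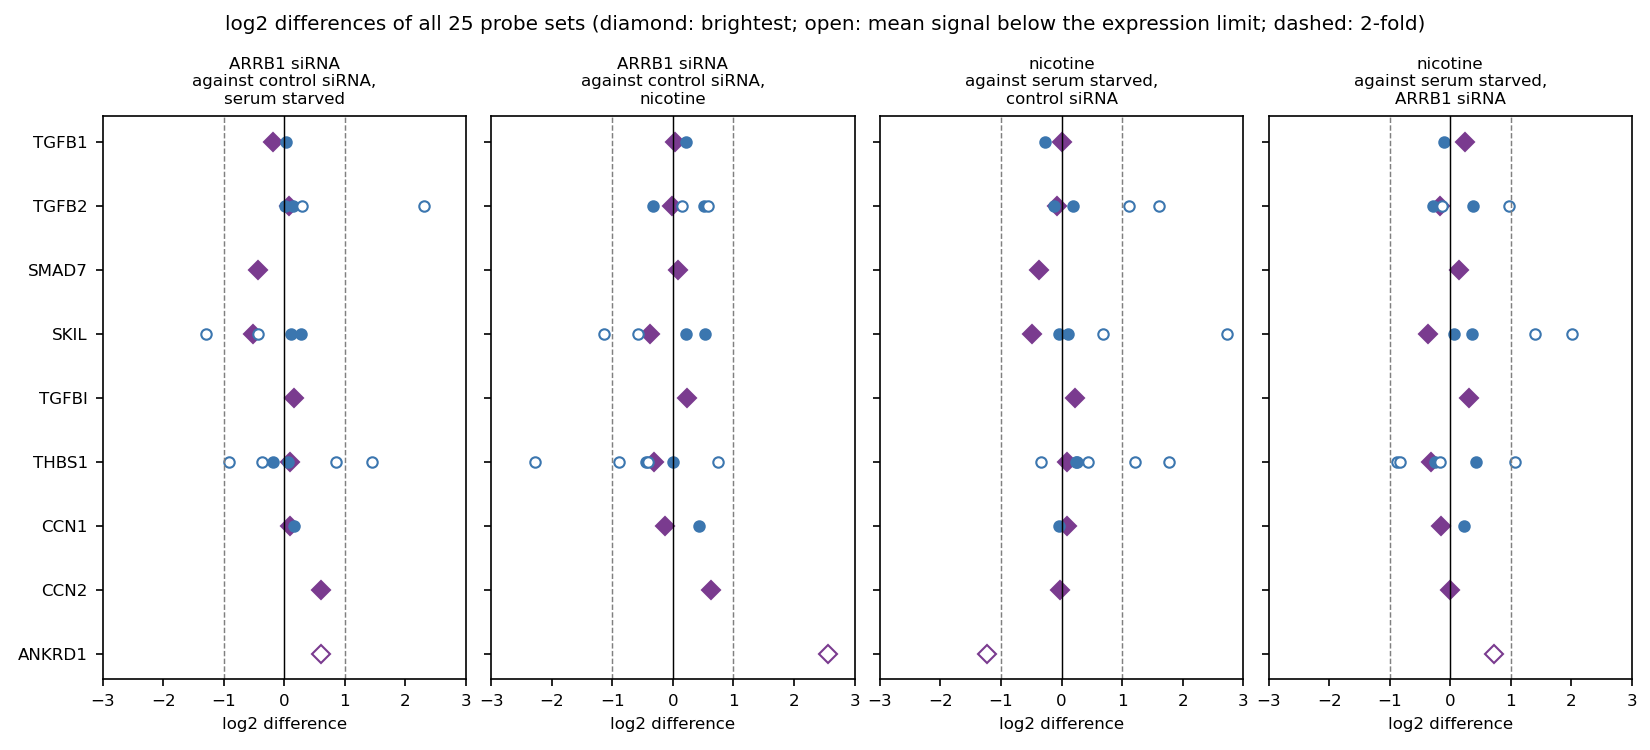
log2 differences (horizontal axes) of all 25 probe sets in the 4 comparisons, by gene, with diamonds for the brightest probe set of a gene, open symbols for those below the expression limit and dashed lines at 2-fold. All differences of at least 2-fold are open symbols, and the probe sets of SKIL, THBS1 and TGFB2 lie on both sides of 0.

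Of the TGF-β pathway inhibitors, SKIL had the widest range over the 4 arrays among the expressed genes of the set. Its brightest probe set, 225227_at, read 3425 (starved) and 2439 (nicotine) with control siRNA, against 2402 and 1869 with ARRB1 siRNA. The starved control array was the highest and the array with both ARRB1 siRNA and nicotine the lowest, 1.83-fold apart, with the other two close together. The log2 differences were -0.51 and -0.38 with ARRB1 siRNA and -0.49 and -0.36 with nicotine, against SDs of 0.23, 0.27, 0.16 and 0.24 at that signal. Of the 1000 probe sets of similar signal, SKIL included, 20 and 63 were at least as low with ARRB1 siRNA in starved and nicotine treated cells, and 2 and 57 with nicotine under control and ARRB1 siRNA. In the additive fit the ARRB1 siRNA difference was -0.45 ± 0.10 (SE, 4 arrays) with an adjusted p of 0.0144 by limma, and the nicotine difference -0.43 ± 0.10 with 0.102. The ARRB1 siRNA call was lost when each array was centred on its median (adjusted p = 0.148), and with the median over the SKIL probe sets the difference was 0.25 with an adjusted p of 0.681. SKIL was 1 of 35 expressed genes (0.28%) that were at least 1.25-fold lower in all 4 comparisons, which share arrays with each other, and this limit was chosen after its values were seen.

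The other SKIL probe sets did not show this order. The expressed 217591_at read 246 and 238 with control siRNA, against 267 and 342 with ARRB1 siRNA, and 206675_s_at had 118 and 127 against 143 and 148. Both were thus higher with ARRB1 siRNA in each pair, by log2 differences of 0.12 and 0.53 and of 0.28 and 0.22. The other two SKIL probe sets, 215889_at and 232379_at, lay below the expression limit, with signals of 4.56 to 55.3. Whether these probe sets read different transcripts of SKIL was not tested.

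SMAD7, the inhibitory SMAD and a direct target of TGF-β, was read by 1 probe set, 204790_at. It had 662 in starved control siRNA cells, and 512 with nicotine, 491 with ARRB1 siRNA and 543 with both. The starved control array stood above the other 3, which lay close to each other. Its log2 difference with ARRB1 siRNA was -0.43 in starved and 0.09 in nicotine treated cells, and nicotine gave -0.37 under control siRNA and 0.15 under ARRB1 siRNA. The ARRB1 siRNA difference changed by 0.52 between the treatments, where probe sets of similar signal had an SD of 0.33 for this change. This was the largest such change among the 8 expressed genes, and with 1 array per condition it has no error of its own and was not tested.

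The 2 ligands were nearly flat. TGFB1, the most widely expressed TGF-β, read 1457 and 1469 with control siRNA on 203085_s_at, against 1278 and 1503 with ARRB1 siRNA. Its log2 differences ran from -0.19 with ARRB1 siRNA in starved cells to 0.23 with nicotine in ARRB1 siRNA cells, each within the SD at that signal (0.28 and 0.25). TGFB2, which is both a ligand and a YAP responsive gene, read 1824 and 1733 with control siRNA on 228121_at, against 1929 and 1717 with ARRB1 siRNA, a span of 1.12-fold. The other expressed TGFB2 probe sets disagreed in the nicotine pair, 209909_s_at being lower with ARRB1 siRNA (-0.32) and 220407_s_at higher (0.51).

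TGFBI, a secreted adhesion protein named for its induction by TGF-β, had a bright probe set, 201506_at. It read 14088 (starved) and 16409 (nicotine) with control siRNA, against 15686 and 19366 with ARRB1 siRNA. The array with both ARRB1 siRNA and nicotine was the highest and the starved control array the lowest, 1.37-fold apart. The log2 differences were 0.16 and 0.24 with ARRB1 siRNA and 0.22 and 0.30 with nicotine, under control siRNA before ARRB1 siRNA. The 1000 probe sets nearest to TGFBI in signal had medians of 0.18 and 0.21 for ARRB1 siRNA and 0.11 and 0.15 for nicotine. When every array was corrected against the starved control array by the median over these probe sets, TGFBI had -0.02 and 0.03 for ARRB1 siRNA and 0.11 and 0.16 for nicotine. After quantile normalization the ARRB1 siRNA differences were -0.06 and -0.01.

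**Figure D3:**
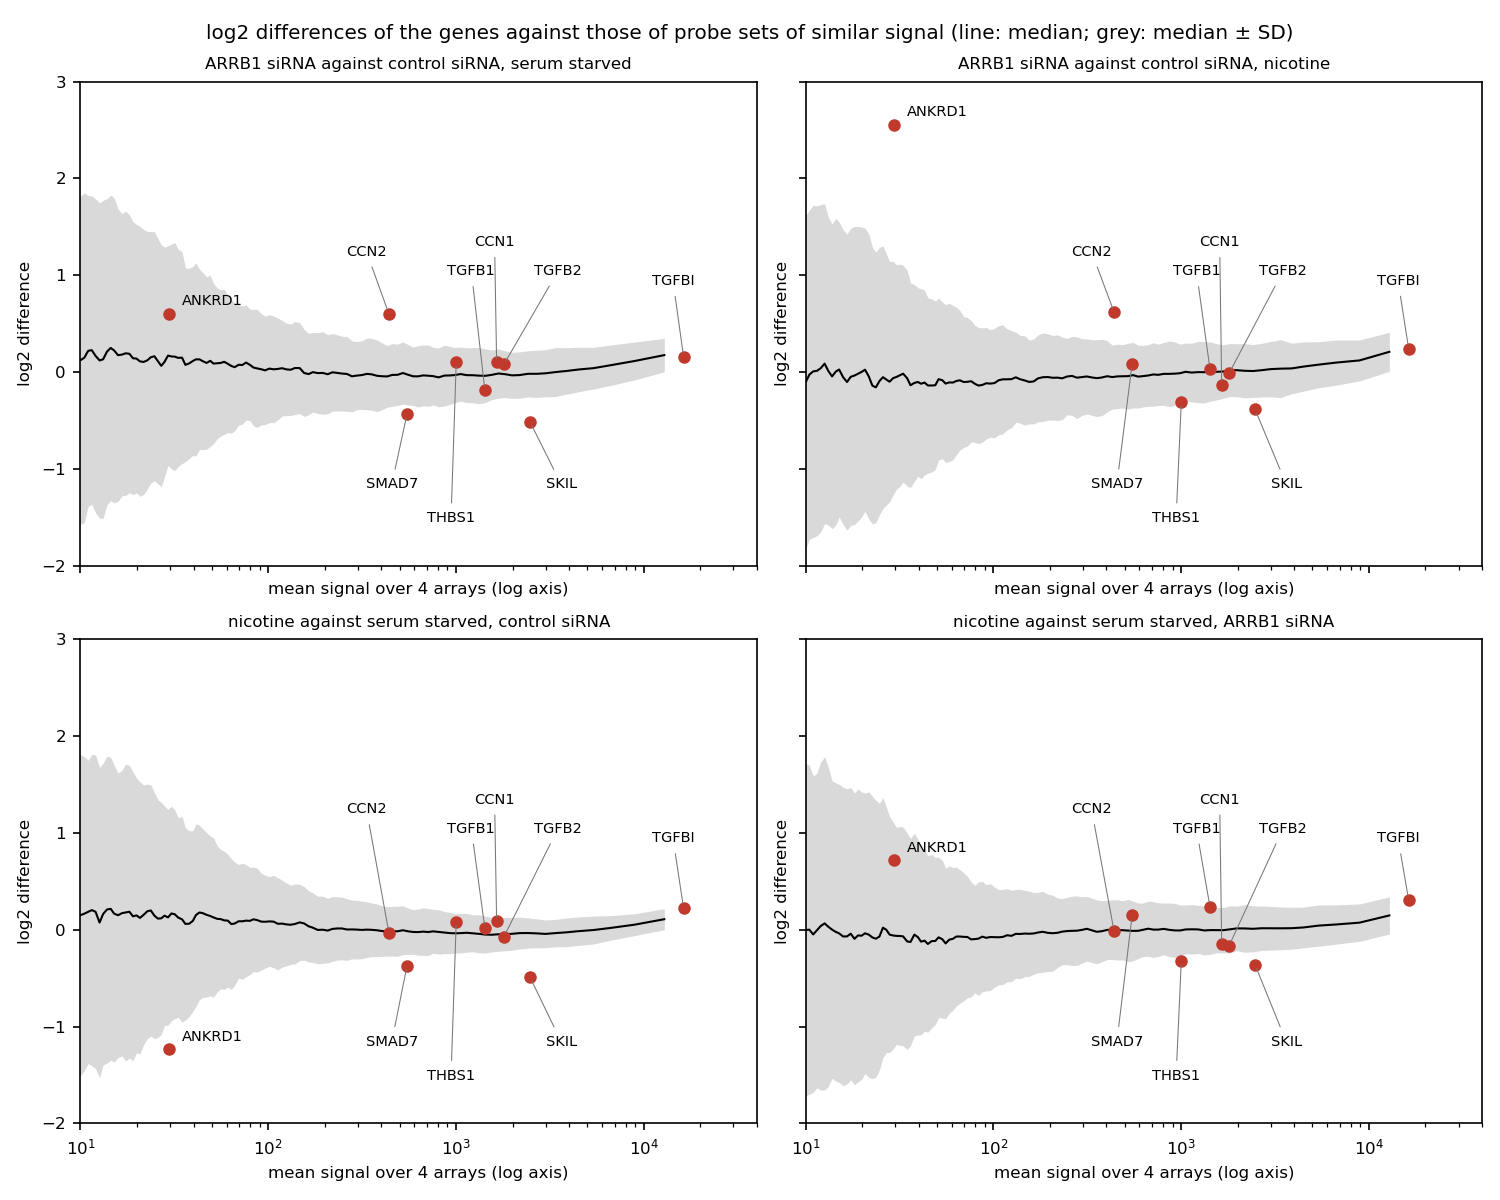
log2 difference of each gene (red points, vertical axis) against its mean signal (log axis) in the 4 comparisons, over the running median (black line) and median ± SD (grey) of the 1000 probe sets nearest in signal. CCN2 lies above the grey band in both ARRB1 siRNA panels, and SKIL lies below it in all 4 panels. ANKRD1 sits where the band is wide. It lies above the band for ARRB1 siRNA in the nicotine pair and below it for nicotine under control siRNA.

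At the 2-fold limit that the submitters' labels give, none of the 8 expressed genes was higher or lower in any of the 4 comparisons. Of all expressed genes, ARRB1 siRNA in starved cells left 1.01% higher and 0.783% lower by that limit, and with nicotine the shares were 0.879% and 1.4%. With nicotine 0.719% were higher and 0.335% lower under control siRNA, and under ARRB1 siRNA 0.495% and 0.958%. A count of 0 among 8 genes lies near these shares. In the additive fit 1 of the 8, CCN2, was called higher and 1, SKIL, lower with ARRB1 siRNA, where 3.53% and 3.87% of all expressed genes were. With nicotine none of the 8 was called, at adjusted p from 0.102 to 0.989, where 0.112% of genes were called higher and 0.0399% lower. At an unadjusted p under 0.05 by limma, SKIL (lower) and TGFBI (higher) passed for nicotine. Of all 12521 expressed genes, 558 were higher and 640 lower by that limit. For ARRB1 siRNA CCN2, SKIL and TGFBI passed it, where 1403 of all expressed genes were higher and 1271 lower. The remaining 6 genes had adjusted p from 0.152 to 0.952 for ARRB1 siRNA. At 1.5-fold in both ARRB1 siRNA pairs, 1 of the 8 was higher (CCN2) and 0 were lower, where 1.01% and 1.72% of all expressed genes were.
The median log2 difference of the 8 genes was 0.09 in starved and 0.01 in nicotine treated cells for ARRB1 siRNA, against 0.02 and 0.02 over all expressed genes. For nicotine it was -0.01 under control siRNA and -0.08 under ARRB1 siRNA, against -0.02 and -0.01. The set thus held genes with higher and with lower signals under ARRB1 siRNA and had no common direction.

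The expressed genes most like CCN2 over the 4 arrays, by the root mean square distance between log2 signals after centring each gene, were SIN3B, a corepressor scaffold (0.0042), PSG1, a pregnancy-specific glycoprotein of a family of near-identical genes, read at signals of 62.7 to 96.9 (0.015), and MMAB, an enzyme of vitamin B12 metabolism (0.023). Those most like SKIL were ANXA2P1, a pseudogene of annexin A2 (0.033), SLC19A3, a thiamine transporter (0.036), and BRIX1, a ribosome biogenesis factor (0.037). ANXA2P1 may share probe sequence with its parent gene, so its signal is uncertain.

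The other genes of the TGF-β pathway were taken from 4 lists. Of 15 expressed ligands and genes of latency and activation, 2 were lower by at least 2-fold and none higher under ARRB1 siRNA in starved cells, and none in either direction in nicotine treated cells, with medians of 0.05 and 0.07. LTBP1, which tethers latent TGF-β to the matrix, read 1029 (starved) and 904 (nicotine) with control siRNA, against 512 and 481 with ARRB1 siRNA, log2 differences of -1.01 and -0.91. INHBB, an activin subunit, had 1423 and 1715 against 706 and 1103, differences of -1.01 and -0.64. Both were lower in each pair, while ITGB8, an integrin that activates latent TGF-β, was higher by 0.83 and 0.20, and BMP4 was lower by log2 differences of -0.44 and -0.48.
Among 15 expressed receptors and SMADs, none was 2-fold under ARRB1 siRNA in starved cells, with a list median of -0.04. In nicotine treated cells the list median was -0.28 and 1 was lower, where 1.4% of all expressed genes were. That one was ACVR2A, an activin receptor, which read 383 and 356 with control siRNA, against 319 and 144 with ARRB1 siRNA. The TGF-β receptor TGFBR2 had differences of -0.14 and -0.04 and SMAD3, a carrier of the signal to the nucleus, 0.02 and 0.03.

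None of 13 expressed inhibitors reached 2-fold in any comparison. FST, follistatin, which binds activins, was 1.5-fold or more higher with ARRB1 siRNA in both pairs, with 257 and 212 against 436 and 351, log2 differences of 0.77 and 0.73, with 3 of its 3 expressed probe sets higher in starved and 2 in nicotine treated cells. BAMBI, a decoy receptor, was lower by log2 differences of -0.24 and -0.25. Of 24 other expressed TGF-β responsive genes, 1 was 2-fold higher and 1 lower with ARRB1 siRNA in starved cells. In nicotine treated cells 1 was lower with ARRB1 siRNA and none higher, and the medians were 0.01 and 0.01. Of all expressed genes 1.01% were higher and 0.783% lower in starved cells, and 1.4% lower in nicotine treated cells. COL4A1, a basement membrane collagen chain, was the lower one in both pairs, at 2246 and 2022 against 857 and 871, log2 differences of -1.39 and -1.22 with both of its expressed probe sets lower. FN1, fibronectin, was lower by log2 differences of -0.44 and -0.59, on all 4 of its expressed probe sets. ADAM19, a membrane metalloprotease, was higher by 0.65 and 0.79, and TIMP3, an inhibitor of metalloproteases, by 1.75 and 0.59 from a starved control signal of 66.5. Genes of this list thus stood on both sides of 0 with ARRB1 siRNA.

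Of 17 expressed Hippo kinases and scaffolds and 8 expressed YAP, TAZ, TEAD and VGLL factors, none reached 2-fold in any comparison. YAP1 had log2 differences of -0.21 and -0.01 with ARRB1 siRNA and WWTR1, which encodes TAZ, of -0.02 and -0.08. VGLL4, which competes with YAP for TEAD factors, was lower in both pairs, with 1004 and 1000 against 658 and 701, differences of -0.61 and -0.51 that both of its expressed probe sets shared in sign. AMOTL2, a junction scaffold that binds YAP and is itself YAP responsive, read 3001 and 3563 with control siRNA, against 5133 and 4503 with ARRB1 siRNA, higher by 0.77 and 0.34. LATS2, a Hippo kinase and YAP responsive gene, was higher by 0.29 and 0.56. Also in the Hippo list, FRMD6 was higher by 0.74 and 0.22, and SAV1 was lower by log2 differences of -0.09 and -0.63.
Of 21 other expressed YAP responsive genes, which include AMOTL2 and LATS2, none was 2-fold, and the medians with ARRB1 siRNA were 0.07 in starved and 0.23 in nicotine treated cells. In this list 10 of 21 genes (47.6%) were higher in both pairs and 6 (28.6%) lower in both, where 34.6% and 30.0% of all expressed genes were. With centring on probe sets of similar signal 9 (42.9%) were higher in both, against 33.4%. Such shares were not particular to this list. Of the TGF-β ligands and latency genes 46.7% were higher and 26.7% lower in both pairs, and of the inhibitors 46.2% and 38.5%. Of the receptors and SMADs 20% were higher and 46.7% lower. MYOF, a membrane repair protein, was higher by 0.22 and 0.59 and NT5E, an ecto-nucleotidase, by 0.37 and 0.37, but of the 4 expressed NT5E probe sets only 1 was higher in each pair. Among 12 expressed SRF and MRTF responsive genes none was 2-fold, and the medians were 0.07 and 0.10. In the CCN and thrombospondin families, 1 of 5 other expressed genes was 2-fold, THBS4. It was lower with ARRB1 siRNA in nicotine treated cells (102 against 40.2), where 1.4% of all expressed genes were. In starved cells THBS4 was not lower (75.6 against 94.1).

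**Figure D4:**
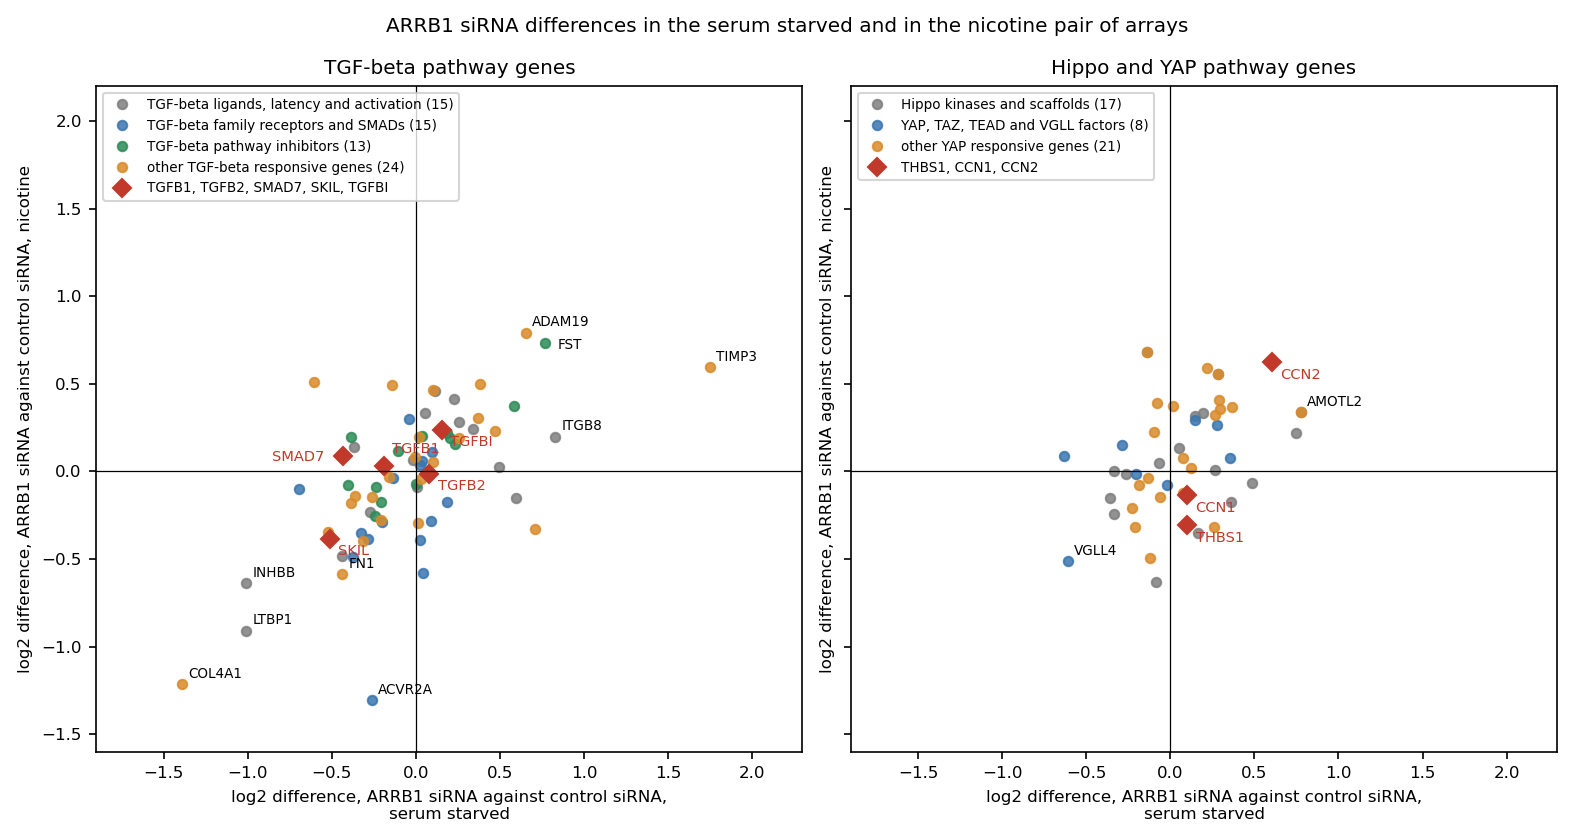
log2 difference with ARRB1 siRNA in the nicotine pair (vertical axis) against that in the starved pair (horizontal axis) for the expressed genes of the TGF-β lists (left) and the Hippo and YAP lists (right), with the expressed genes of the set as red diamonds and list sizes in the key. In the left panel COL4A1, LTBP1 and INHBB lie at the lower left and FST, ADAM19 and TIMP3 at the upper right. SKIL is the red diamond at the lower left of that panel. In the right panel CCN2 and AMOTL2 lie at the upper right and VGLL4 at the lower left.

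Under control siRNA none of the expressed genes in these 9 lists was at least 2-fold higher or lower with nicotine. Of all expressed genes 0.719% were higher and 0.335% lower. Genes below the expression limit were not counted. Under ARRB1 siRNA 2 of the expressed genes were lower, ACVR2A (-1.15) and THBS4 (-1.23), and none was higher. Of all expressed genes 0.958% were lower and 0.495% higher in that comparison. NEDD4L, a ubiquitin ligase that acts on SMADs, was lower with nicotine in both siRNAs, with 805 against 524 and 749 against 568, log2 differences of -0.62 and -0.40. ACVR1C, a further activin receptor, was lower by log2 differences of -0.94 and -0.34, from 118 to 61.5 and from 72.9 to 57.4, at signals close to the medians of the arrays.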

How the data were processed

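RNA of A549 cells was measured on 4 Affymetrix arrays, 1 for each combination of siRNA and treatment, which sample titles assigned to conditions. Per the labels, the deposited values are linear signal intensities, computed by the authors with the MAS5 algorithm of GCOS 1.4. The methods name a log2 transformation and gene centring, which these intensities do not hold. Detection calls were not used here.

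After 62 control probe sets were left out, log2 differences between arrays were computed without a floor (Python 3.11.15, numpy 2.4.6, pandas 2.3.3, matplotlib 3.10.9). An additive fit of siRNA and treatment was run with limma 3.58.1 in R 4.3.3 (eBayes with a trend on signal). Both were tested on simulated data. Of 54613 probe sets, 41091 named 1 gene, 1801 several and 11721 none, and symbols were updated through gene identifiers of a RefSeq table (GRCh38.p14). Of 174 genes in the 10 further lists, 10 had no probe set of their own and are not analysed here. Precision is described by the SD over the 1000 probe sets nearest in mean signal, which reflects differences among genes as well as noise.

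The genes and lists were chosen with earlier results of these data known. Named beyond the 9 genes were list genes at least 2-fold in both ARRB1 siRNA comparisons, up to 4 of each list with the largest ARRB1 siRNA differences and up to 4 with the largest nicotine differences of 1 sign, and the 3 most alike genes of the 2 widest ranging genes. YAP1, WWTR1, TGFBR2 and SMAD3 were named outside this rule for their place in the pathways, after their values were seen. Alternatives were centring on the array median, quantile normalization, floors at the 25th percentile and the median of signal, the median over probe sets, leaving out _x_at probe sets, limits of 1.5-fold and 3-fold, other signal filters, and, added after the data were examined, centring on probe sets of similar signal and the additive fit.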

Additional observations from a re-analysis of the deposited data

Results flagged for a closer look

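ANKRD1 was picked out because the nicotine difference had opposite signs under the 2 siRNAs, each by at least 1.5-fold. Nicotine gave a log2 difference of -1.24 under control siRNA and 0.71 under ARRB1 siRNA. This difference between the siRNAs was not tested, and all 4 ANKRD1 signals lay below the medians of their arrays. No group held enough arrays to look for a sample far from the others.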

How the results depend on the processing

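With 1 array per condition there are no numbered replicates to pair, and the additive fit pairs arrays within treatment and within siRNA. Without any array that fit has no residual degrees of freedom. Over the 9 genes, 295 of 315 log2 differences and changes of difference under other settings moved by less than the SD at their signal. Many of these could not move, so the count says little about stability. None of the brightest probe sets is an _x_at probe set, and those of the expressed genes lie above both floors. CCN2, SMAD7, TGFBI and ANKRD1 have a single probe set, which is its own median. With the median over all probe sets of a gene, SKIL went to 0.28 and 0.22 for ARRB1 siRNA in starved and nicotine treated cells and to 0.11 and 0.055 for nicotine in control and ARRB1 siRNA cells, TGFB2 to 0.51 for ARRB1 siRNA with nicotine and 0.37 for nicotine with ARRB1 siRNA (change of difference 0.50), CCN1 to 0.15 for ARRB1 siRNA with nicotine (change of difference 0.015), and THBS1 to -0.35 and -0.83 for nicotine. This setting takes in dim probe sets. TGFBI went to -0.059, -0.014 and 0.087 after quantile normalization and to -0.021, 0.029 and 0.11 with centring on probe sets of similar signal, for ARRB1 siRNA in starved and in nicotine treated cells and nicotine in control siRNA cells, since both settings take off the shift of bright probe sets. With a floor at the median the values of ANKRD1 for ARRB1 siRNA with nicotine, for nicotine under control siRNA and for the change of difference were 0. Lowering the limit to 1.5-fold gave 1 expressed gene of the set, CCN2, for ARRB1 siRNA in each pair in place of 0. In the additive fit the calls for ARRB1 siRNA were 442 higher and 485 lower. They went to 150 and 297 with centring on probe sets of similar signal, 182 and 297 with centring on the array median and 154 and 221 with the median over probe sets, and quantile normalization gave 264 higher. Nicotine had 14 higher and 5 lower, which became 0 and 0, 24 and 20, and 4 and 1 under the first 3 of these settings, 1 and 0 after quantile normalization and 1 and 0 without _x_at probe sets. Fitted differences changed sign with the median over probe sets for SKIL (0.25 for ARRB1 siRNA, 0.083 for nicotine), CCN1 (0.14, 0.031), TGFB1 (0.023, -0.030) and TGFB2 (0.12 for nicotine), with quantile normalization for CCN1 (0.0096) and TGFBI (-0.036) under ARRB1 siRNA, and with centring on similar signal for CCN1 under nicotine (0.0062), and SKIL was the only one of these that was called. The cause was not tested. The share of all genes at least 2-fold in a direction was 6.23% to 9.16% with no filter on signal, 3.49% to 5.56% for genes above the 25th percentile and 0.0123% to 0.662% above the 75th, and 0.447% to 1.22% under the 3 scalings. The signal over background limits what can be said of ANKRD1 and of the dimmer probe sets of SKIL, TGFB2 and THBS1.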
